A study of Mus musculus with 2 samples.

Results

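Megakaryocytes are the large marrow and fetal liver cells that shed platelets, and 9 of their genes were followed here in a map of EP300 binding: the adhesion receptor genes Gp1ba, Gp9, Itga2b and Gp6, the thrombin receptor gene F2rl2, the secreted protein genes Vwf, Pf4 and Ppbp, and the tubulin gene Tubb1. EP300 is a histone acetyltransferase that transcription factors bring to enhancers and promoters in use. The map came from ChIP-seq, the sequencing of DNA pulled down with an antibody, in 2 libraries, replicates 1 and 2, from pooled and pulverized livers of B6NCrl mouse embryos of both sexes at 14.5 days of development. The libraries form 1 group with no second genotype, age or tissue, and they are labelled as biological replicates but carry the same biosample label, so whether they came from separate animals is not settled by the labels, and differences between them may be technical. A peak was counted for a gene when its summit, the position of highest signal, lay within 50 kb of any annotated transcription start site (TSS) of that gene in GENCODE vM21. The peaks came from the authors' optimal list, 1 of their 2 lists thresholded by the irreproducible discovery rate (IDR); the other is called conservative. By this rule 32 of the 17043 optimal peaks on chromosomes 1 to 19 and X belonged to the 9 genes.

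EP300 peaks lay near Gp1ba, Gp9, Itga2b, F2rl2, Vwf and Tubb1, the strongest of them near F2rl2. These 6 of the 9 genes (66.7%) had at least 1 optimal peak within 50 kb, and 53.7% of the 21755 protein-coding genes did. Within 20 kb the same count was 6, beside 38.6%, and within 5 kb it was 5, beside 23.5%. The 3 genes without a peak within 50 kb were Pf4 and Ppbp, which encode chemokines stored in platelet alpha granules, and Gp6, which encodes the platelet collagen receptor. The number of peaks per gene ran from 0 to 9 with a median of 4, beside a median of 1 over all protein-coding genes. Itga2b and Vwf have 10 annotated TSSs each and so a wider window than the others, which have 1 to 3. With 1 group of libraries there is no test over samples, and all counts here are descriptions of these peak lists.

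As background, megakaryocytes and red cell precursors arise from a shared progenitor, and both depend on the transcription factors GATA1, FOG1 and GFI1B. Megakaryocytes also rely on RUNX1 and on ETS family factors such as FLI1, and NFE2 is needed for platelet release in mice. In the embryo the liver is a main site of blood formation at this age, so megakaryocytes share the organ with many more red cell precursors and with hepatocytes, endothelial cells and macrophages. In such a mixture a peak in few cells with much EP300 and a peak in many cells with little cannot be told apart.

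The sequences below surround the summits that carry the results: the strongest peak of each gene that had one, and the further peaks closest to the starts of Itga2b and Gp9 and the second strongest of F2rl2. Each is read from the plus strand of mm10, from 100 bases before to 100 bases after the summit. Capitals mark GATA motifs, searched as AGATAA or AGATAG or TGATAA or TGATAG on both strands, so that a motif of the opposite strand reads, for example, TTATCT.
Gp1ba promoter, chr11:70638932-70639132: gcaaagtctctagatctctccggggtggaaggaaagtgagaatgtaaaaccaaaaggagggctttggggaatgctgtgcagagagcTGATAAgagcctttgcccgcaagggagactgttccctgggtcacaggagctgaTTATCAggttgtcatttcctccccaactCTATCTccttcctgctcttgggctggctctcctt
Gp9 upstream peak, strongest, chr6:87763426-87763626: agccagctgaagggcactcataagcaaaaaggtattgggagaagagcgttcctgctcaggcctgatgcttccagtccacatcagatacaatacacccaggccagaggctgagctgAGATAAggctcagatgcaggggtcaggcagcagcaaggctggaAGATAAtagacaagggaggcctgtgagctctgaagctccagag
Gp9 upstream peak, closest to the start, chr6:87775968-87776168: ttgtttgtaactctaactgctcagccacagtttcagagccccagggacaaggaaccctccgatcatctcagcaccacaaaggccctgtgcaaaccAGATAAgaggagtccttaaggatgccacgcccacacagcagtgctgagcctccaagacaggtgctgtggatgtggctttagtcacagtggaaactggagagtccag
Itga2b promoter, chr11:102470100-102470300: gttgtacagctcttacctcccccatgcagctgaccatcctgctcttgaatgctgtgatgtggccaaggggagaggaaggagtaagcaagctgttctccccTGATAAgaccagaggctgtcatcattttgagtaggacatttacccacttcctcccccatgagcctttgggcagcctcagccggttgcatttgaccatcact
Itga2b distant peak, strongest, chr11:102408515-102408715: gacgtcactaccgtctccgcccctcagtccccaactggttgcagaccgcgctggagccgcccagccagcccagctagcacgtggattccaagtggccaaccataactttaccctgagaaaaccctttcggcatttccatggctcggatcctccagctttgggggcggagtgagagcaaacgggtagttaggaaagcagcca
F2rl2, in an Iqgap2 intron, strongest, chr13:95679588-95679788: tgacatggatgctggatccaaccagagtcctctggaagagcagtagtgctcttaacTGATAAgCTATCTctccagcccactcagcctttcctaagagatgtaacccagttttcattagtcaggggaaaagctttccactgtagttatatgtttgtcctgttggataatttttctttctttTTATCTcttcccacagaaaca
F2rl2, in an Iqgap2 intron, second strongest, chr13:95671527-95671727: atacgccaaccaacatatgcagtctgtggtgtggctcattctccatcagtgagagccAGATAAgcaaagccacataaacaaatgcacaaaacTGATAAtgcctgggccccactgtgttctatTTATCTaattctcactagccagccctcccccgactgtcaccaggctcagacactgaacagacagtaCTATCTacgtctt
Vwf intron, chr6:125565066-125565266: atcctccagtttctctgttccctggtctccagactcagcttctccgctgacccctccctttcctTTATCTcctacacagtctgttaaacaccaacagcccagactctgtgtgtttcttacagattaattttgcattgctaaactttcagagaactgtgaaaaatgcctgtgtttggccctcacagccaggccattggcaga
Tubb1 intron, chr2:174453765-174453965: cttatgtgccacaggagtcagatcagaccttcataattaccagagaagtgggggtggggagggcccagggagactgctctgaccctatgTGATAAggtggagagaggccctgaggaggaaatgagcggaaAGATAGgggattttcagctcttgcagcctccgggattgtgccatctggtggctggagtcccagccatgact
All but the distant Itga2b peak hold at least 1 GATA motif, as do 74.7% of all optimal peaks and 92.6% of those with a signal above 100. The start of the motif was the summit base itself at the Itga2b promoter, and motifs began 5 bases before the summit at the closest Gp9 peak, 11 before it in Tubb1 and 14 before it at the Gp1ba promoter. At the others, the nearest began 8 bases before the summit at the second F2rl2 peak and 15 after it at the strongest Gp9 peak. It began 36 before the summit in Vwf and 37 before it at the strongest F2rl2 peak.

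**Figure D1:**
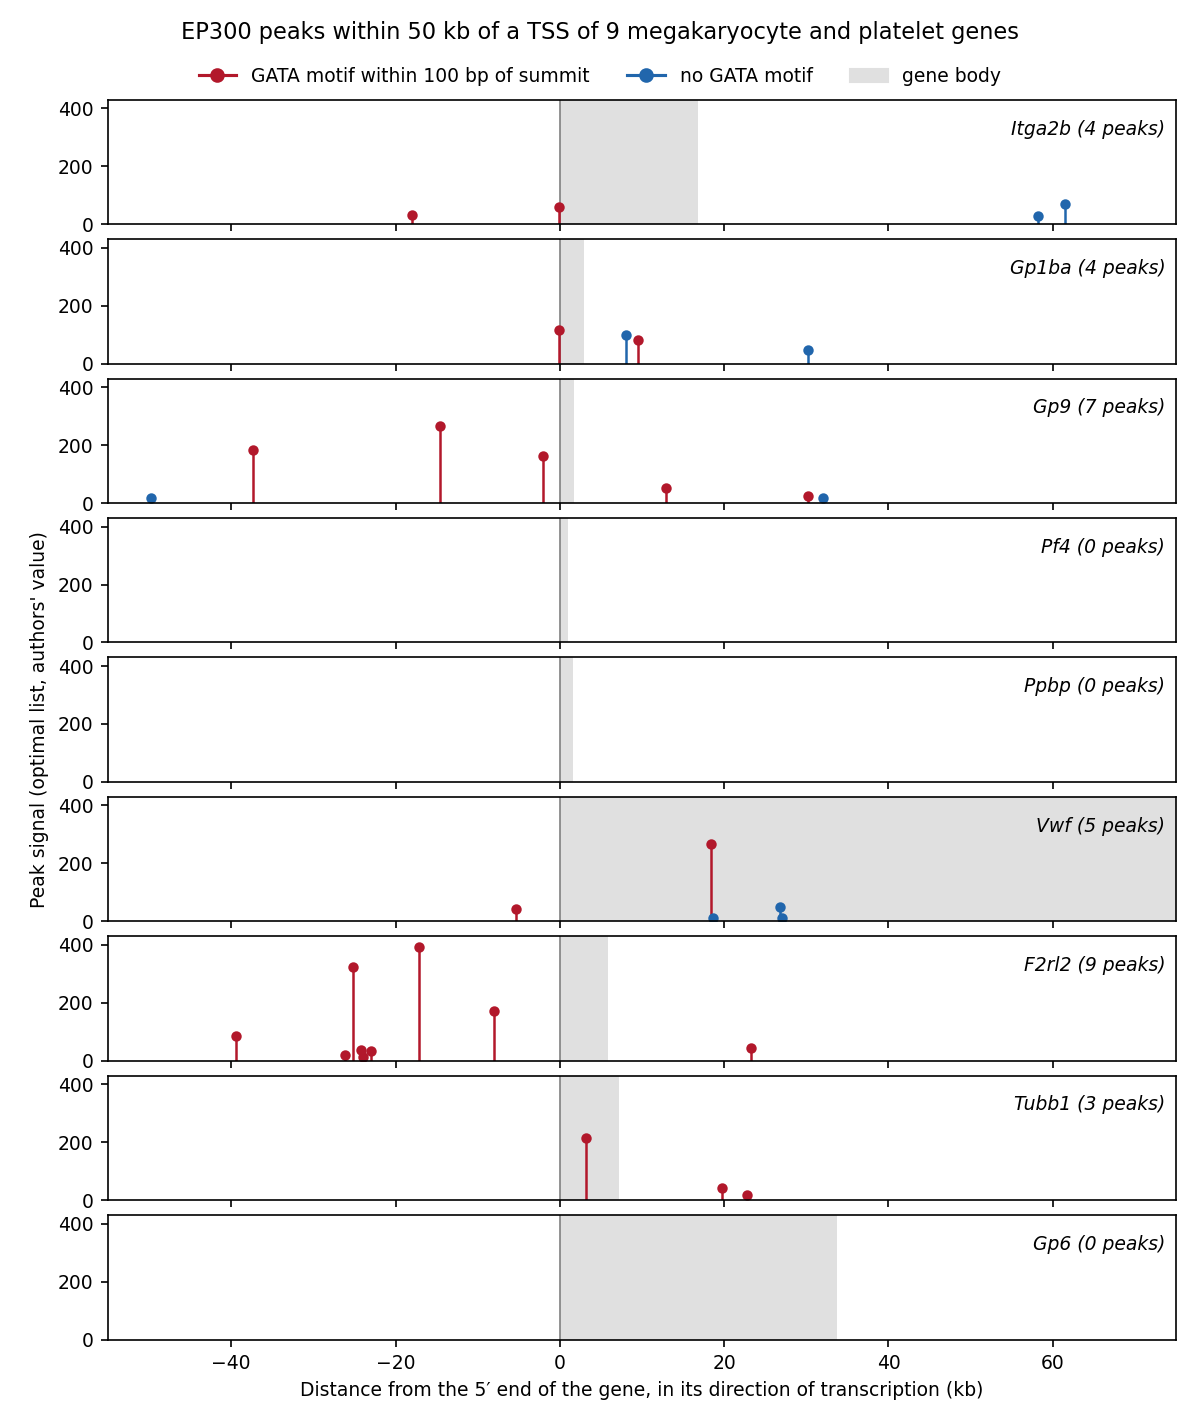
EP300 peaks near each of the 9 genes, 1 panel per gene: horizontal position is the distance of the summit from the 5′ end of the gene in kb (negative is upstream), height is the peak signal of the authors' optimal list, red marks a GATA motif within 100 bp of the summit, blue marks none, and grey is the gene body, which runs past the right edge for Vwf. The tallest peaks are those at F2rl2, with signals of 394.1 and 325.2, and the panels of Pf4, Ppbp and Gp6 are empty.

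The receptor for von Willebrand factor on platelets is the GPIb-IX-V complex, and its subunit genes Gp1ba and Gp9 had different arrangements of peaks. Gp1ba, the gene of the ligand-binding chain, had its strongest peak at its promoter on chromosome 11 from 70638862 to 70639201, with the summit 90 bp upstream of the nearest TSS. That peak had a signal of 115.3 in the optimal list, where signal is the authors' own value per peak and has a scale of its own in each list. In the list of replicate 1 it had a signal of 58.5 and rank 2776 of 300000 peaks, and in that of replicate 2 a signal of 52.4 and rank 3339. The sequence shown above holds 3 GATA motifs and 3 ETS motifs (any of AGGAAG or AGGAAA or CGGAAG or CGGAAA on either strand). The other 3 peaks of the Gp1ba window lay within 1 kb of a TSS of another gene. The first lay within the gene Slc25a11, 54 bp from a TSS of the ubiquitin ligase gene Rnf167. It had 97.7 in the optimal list, 45.0 in replicate 1 (rank 3727) and 51.8 in replicate 2 (rank 3393). The second, 514 bp from a TSS of Rnf167, had 83.2, 38.9 in replicate 1 (rank 4381) and 39.4 in replicate 2 (rank 4531). The last, at Spag7, had 45.8, 20.2 in replicate 1 (rank 8246) and 23.2 in replicate 2 (rank 7619). All 4 peaks thus had summits in both libraries at similar ranks.

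Gp9 had 3 strong peaks upstream but no optimal or pooled peak within 1 kb of its TSS, where replicate 1 had an entry of 3.44 (rank 265123) and replicate 2 none. The closest of the 3, on chromosome 6 from 87775990 to 87776075, was 2004 bp from the Gp9 TSS and 75 bp from that of the noncoding RNA gene Gm43904. It had a signal of 161.6 in the optimal list, 60.6 in replicate 1 (rank 2663) and 99.9 in replicate 2 (rank 1346). The strongest, from 87763412 to 87763664, was intergenic, 14546 bp upstream of Gp9 and 10004 bp from Efcc1, the nearest coding gene. Its signals were 266.6 in the optimal list, 118.7 in replicate 1 (rank 878) and 145.6 in replicate 2 (rank 546). The third lay in intron 2 of Efcc1, 37375 bp from Gp9, with 184.7 in the optimal list, 82.9 in replicate 1 (rank 1719) and 105.5 in replicate 2 (rank 1220). Replicate 2 ranked each of these 3 peaks higher than replicate 1 did. The remaining 4 peaks of the window had signals from 16.6 to 51.1, and 3 of them lay in Rab43 on the other side of Gp9. The strongest of the 4, 911 bp from a Rab43 TSS, had 29.4 in replicate 1 (rank 5786) and 21.8 in replicate 2 (rank 8079).

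Itga2b encodes the alpha chain of the platelet fibrinogen receptor, integrin alpha IIb beta 3, known as CD41. Its promoter held a peak on chromosome 11 from 102470030 to 102470369, with the summit 78 bp upstream of the TSS. The signal was 60.1 in the optimal list, 34.9 in replicate 1 (rank 4842) and 26.4 in replicate 2 (rank 6704). The only GATA motif of the sequence shown lies on the summit, preceded by a CTG that makes it a composite of an E-box part and a GATA site. A weaker peak 17985 bp upstream, in an intron of Gpatch8, had a signal of 33.4 and 4 GATA motifs. The strongest peak of the window, 71.0 in the optimal list, was 47575 bp from an internal Itga2b TSS, 61507 bp from the 5′ end of the gene and 669 bp from the TSS of Slc25a39, a mitochondrial carrier gene. It had 49.9 in replicate 1 (rank 3338) and 24.1 in replicate 2 (rank 7327), and no GATA motif. In replicate 2 the promoter peak was therefore the stronger of the pair. With TSSs of protein-coding transcripts alone, the distant peak was outside the window and Itga2b had 2 peaks. Among the 6 genes with peaks, Itga2b had the lowest strongest signal.

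F2rl2 encodes PAR3, a protease-activated receptor that on mouse platelets assists the cleavage of PAR4 by thrombin. The gene lies inside a larger one, Iqgap2, which encodes a scaffold protein and is transcribed in the opposite direction. All 9 peaks of the F2rl2 window lay in introns of Iqgap2, more than 1 kb from any annotated TSS. All 9 held a GATA motif, beside 86.3% of all optimal peaks that far from a TSS. The strongest was on chromosome 13 from 95679489 to 95679907, 17165 bp upstream of F2rl2 in intron 17 of the 35 introns of Iqgap2. It had a signal of 394.1 in the optimal list, 189.5 in replicate 1 (rank 157) and 202.3 in replicate 2 (rank 110). The second, from 95671459 to 95671839 in intron 20, had a signal of 325.2 in the optimal list, 168.9 in replicate 1 (rank 284) and 156.0 in replicate 2 (rank 430). These were the 2 strongest of the 32 peaks in the optimal list and in each library.

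Of the other F2rl2 peaks, the one closest to the gene, 8066 bp upstream, had a signal of 172.7 in the optimal list, 99.3 in replicate 1 (rank 1263) and 84.2 in replicate 2 (rank 1809). A peak 39475 bp upstream, whose nearest coding gene was the thrombin receptor gene F2r, had 83.7, with 33.4 in replicate 1 (rank 5058) and 48.8 in replicate 2 (rank 3621). The single peak downstream of F2rl2, at 23250 bp, had 44.4, with 23.4 in replicate 1 (rank 7185) and 17.4 in replicate 2 (rank 9933). Each was thus found in both libraries. The remaining 4 had signals from 11.8 to 36.7. No optimal peak lay within 5 kb of the F2rl2 TSS, where the strongest entry of the pooled list within 1 kb had a signal of 15.7 and pooled rank 18485, with 11.8 in replicate 2 (rank 14332) and 4.17 in replicate 1 (rank 151253). With 9 peaks, F2rl2 was in the upper end of all genes: 2.55% of protein-coding genes had as many or more within 50 kb, and 0.965% had as strong a peak or a stronger one. The count depends on the window and on weak peaks, since 2 of the 9 lay within 20 kb, 0 within 5 kb and 5 were above the median signal.

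Vwf encodes von Willebrand factor, the blood protein that tethers platelets to injured vessels and that endothelial cells make as well as megakaryocytes. Its strongest peak lay in intron 3 of 51, on chromosome 6 from 125565045 to 125565292, 18392 bp inside the gene and 1085 bp from an internal TSS. The signal was 267.1 in the optimal list, 128.8 in replicate 1 (rank 721) and 135.9 in replicate 2 (rank 689). Its GATA motif, TTATCT, began 36 bases before the summit and formed part of a composite with CTG. A peak 5283 bp upstream of the gene had 43.9, with 21.2 in replicate 1 (rank 7857) and 23.4 in replicate 2 (rank 7551). A peak in intron 6 had 47.9, with 24.7 in replicate 1 (rank 6820) and 15.0 in replicate 2 (rank 11409). The remaining 2, of 10.1 and 11.6, had their summits within 500 bp of those of the stronger intronic peaks, and their deposited intervals overlapped. None of the 5 peaks was within 1 kb of the first Vwf TSS, and the peak 884 bp from an internal TSS was the one with the lowest signal of all 32.

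Tubb1 encodes the beta-1 tubulin of the microtubule ring that gives platelets their disc shape. It had a single strong peak, in intron 1 of 3 on chromosome 2 from 174453755 to 174453970, with its summit 3170 bp downstream of the TSS. The signal was 215.6 in the optimal list, 92.2 in replicate 1 (rank 1439) and 124.8 in replicate 2 (rank 866). The sequence shown above holds 2 GATA motifs, 2 ETS motifs and a CACCC motif (CCNCACCC). No list had an entry within 1 kb of the Tubb1 TSS. The other 2 peaks lay at Prelid3b, a neighbouring gene, 19786 and 22788 bp from the Tubb1 TSS. The first had 41.1, with 20.8 in replicate 1 (rank 8010) and 19.9 in replicate 2 (rank 8786), and the second had 16.4 and a summit in replicate 1 alone.

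Pf4 and Ppbp lie side by side on chromosome 5 and had no optimal or conservative peak within 50 kb. In the pooled list, which reaches down to weak signals, the highest entry near either was 8.84 (rank 49867), 15285 bp from Pf4 and 11368 bp from Ppbp. A weaker highest entry was found for 21.1% of protein-coding genes. The libraries differed in what was highest there. Replicate 1 had a peak of 11.2 at rank 14396, 2938 bp from Pf4, and replicate 2 a peak of 6.58 at rank 39966, 43135 bp from Pf4. At the Pf4 TSS itself, the pooled list had an entry of 6.63 at 31 bp (rank 137588). Replicate 2 had one of 5.98 at 32 bp (rank 53602), and replicate 1 had none within 1 kb. At the Ppbp TSS, replicate 1 had an entry of 3.40 at 366 bp (rank 272174), and replicate 2 had none.

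Gp6 on chromosome 7 was likewise without an optimal or conservative peak. The highest entry within 50 kb was 8.20 in the pooled list (rank 63578) and 5.41 in replicate 1 (rank 62609), both in the neighbouring gene Rdh13, and 7.21 in replicate 2 (rank 30676), inside Gp6 and 26400 bp from its TSS. Within 1 kb of the TSS, replicate 2 had an entry of 5.15 (rank 92508) and replicate 1 none. The pooled list held 7 entries in the Gp6 window, beside 17 for Pf4, 18 for Ppbp, between 22 and 42 for the 6 genes with optimal peaks and a median of 16 over all protein-coding genes. For all 3 genes the absence of a peak is an absence from the optimal and conservative lists, whose read depth is unknown.

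The promoters of Pf4 and Gp6 are shown because each holds a GATA motif without an optimal peak. They are RefSeq promoters on build GRCm38.p6, from 250 bases before to 50 bases after the gene start, in the direction of transcription and with GATA motifs in capitals.
Pf4 promoter, chr5:90772185-90772484, plus strand: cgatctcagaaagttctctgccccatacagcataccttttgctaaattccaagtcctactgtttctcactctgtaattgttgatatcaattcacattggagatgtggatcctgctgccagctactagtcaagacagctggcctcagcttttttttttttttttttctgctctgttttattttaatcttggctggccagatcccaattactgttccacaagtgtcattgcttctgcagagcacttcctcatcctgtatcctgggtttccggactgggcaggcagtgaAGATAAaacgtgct
Gp6 promoter, chr7:4397695-4397994, minus strand: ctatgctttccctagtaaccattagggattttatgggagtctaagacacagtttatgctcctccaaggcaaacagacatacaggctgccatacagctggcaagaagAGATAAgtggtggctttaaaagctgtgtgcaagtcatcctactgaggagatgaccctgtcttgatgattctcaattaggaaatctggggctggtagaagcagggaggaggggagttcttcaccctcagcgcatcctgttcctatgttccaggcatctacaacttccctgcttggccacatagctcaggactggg
Of the 8 genes with a RefSeq promoter in the table used (all but Vwf), 4 had a GATA motif there, namely Gp1ba, F2rl2, Pf4 and Gp6, beside 29.6% of all 32619 promoters of that table. Of these 4, only Gp1ba had an optimal peak within 1 kb of its TSS. The Itga2b motif on the summit lies outside its RefSeq promoter, which has none and whose start lies further into the gene than that of GENCODE.

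The strong peaks near these genes recurred in both libraries and some weak ones did not. The optimal list was itself made from both libraries with a reproducibility threshold, so recurrence of its strong peaks was largely fixed in advance. The library lists also reach down to weak entries, so a match can rest on a low rank. Of the 32 peaks, 27 had a summit within 100 bp in both library lists, and 84.3% of all optimal peaks did. All 20 peaks above the median signal of the optimal list, 38.5, were among the 27. The 5 found in 1 library had signals of 36.7 or less. Of these, 2 were neighbours at F2rl2, with summits 199 bp apart. The first had a summit only in replicate 2, of 12.2, and the second only in replicate 1, of 25.7. Of the 32 peaks, 25 were also in the conservative list, beside 78.4% of optimal peaks. That list is not a subset of the optimal one, and it had 28 peaks near the 9 genes, of which 3 were not optimal peaks. Of the 27 recurring peaks, 15 ranked higher in replicate 2 and 12 in replicate 1. The largest gaps in rank were at weak Gp9 peaks, of which 1 ranked 68030 in replicate 1 and 15608 in replicate 2 and another ranked 73238 in replicate 1 and 13195 in replicate 2.

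**Figure D2:**
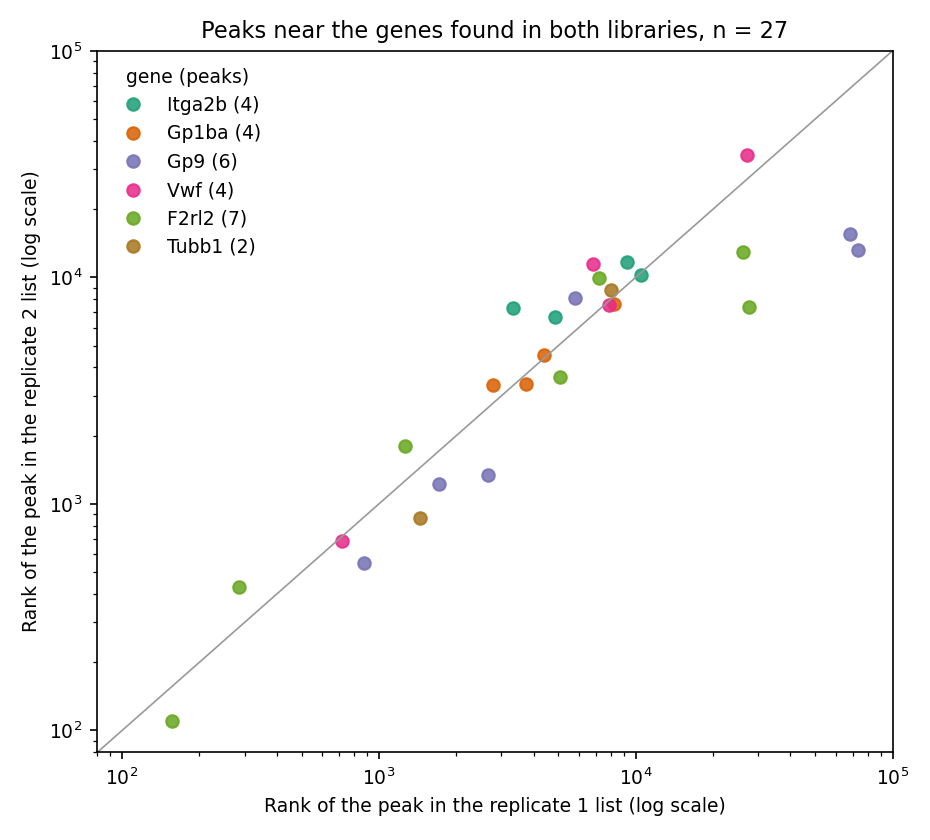
Rank of each of the 27 recurring peaks in the list of replicate 1 (horizontal, log scale) and of replicate 2 (vertical, log scale), where 1 is the strongest of 300000, coloured by gene; the line marks equal ranks. Peaks at F2rl2, Vwf, Gp9 and Tubb1 are at the low left end, near the line, and the points farthest below it are weak Gp9 and F2rl2 peaks.

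The median signal was 46.8 over the 32 peaks and 38.5 over all optimal peaks. Summits lay within 1 kb of any annotated TSS in 11 cases, beside 26.2% of optimal peaks, in introns beyond that distance in 17 and in intergenic sequence in 4. Only 3 of the 11 were within 1 kb of a TSS of 1 of the 9 genes, those at Itga2b, Gp1ba and the internal start of Vwf. Such a peak was therefore present at 3 of the 9 genes, beside 15.5% of protein-coding genes. The count for Vwf rests on the weakest of the 32 peaks, with a signal of 10.1 and a summit in replicate 2 alone, beside a stronger peak. Among the 32 peaks, the summit lay in the body of its own gene in 5 cases, of another coding gene in 18 and of no coding gene in 9. For 18 of the 32 the nearest coding TSS was that of the platelet gene itself, and these were 8 peaks at F2rl2, 5 at Vwf, 2 at Itga2b and 1 each at Gp1ba, Gp9 and Tubb1. The 50 kb window therefore does not say which gene a peak serves.

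GATA motifs were about as frequent at these peaks as at EP300 peaks in general. A GATA motif lay within 100 bp of the summit in 23 of the 32 (71.9%), beside 74.7% of all optimal peaks, and 15 had 2 or more, beside 41.9%. All 9 peaks with a signal above 100 had one, as did 92.6% of the 3399 optimal peaks above that signal. Those 9 were 3 at F2rl2, 3 at Gp9 and 1 each at Gp1ba, Vwf and Tubb1. Motifs were rarer at starts of genes, where 6 of 11 peaks had one (all optimal peaks, 42.1%), than away from them, where 17 of 21 did (86.3%). Of the 18 peaks whose nearest coding gene was the platelet gene, 15 had a GATA motif, and of the other 14 peaks 8 did, beside 74.7% of all optimal peaks. Of those 15, 8 were at F2rl2, and the other 14 peaks lay more often at starts of genes. The split therefore does not show that the motif favours peaks closest to the platelet genes.

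Among the other motifs, an ETS motif was present at 20 of the 32 peaks (62.5%), beside 47.2% of optimal peaks. GATA and ETS motifs occurred together at 15, beside 33.3%. A composite of CTG, then 7 to 9 bases, then GATAA was present at 10 (31.2%), beside 20.9%, and by its letters it overlaps a GATA motif wherever the base before GATAA is A or T. A RUNX motif (either TGTGGT or TGCGGT) was present at 8, beside 20.8%, a CACCC motif at 4, beside 11.4%, and an NFE2 or AP-1 motif (TGACTCA or TGAGTCA) at 2, beside 5.91%. The NFE2 or AP-1 motifs were at the weaker Rnf167 peak near Gp1ba and at a weak Rab43 peak near Gp9. All motifs were searched on both strands, a match is not evidence that a factor bound there, and differences in these shares rest on 32 peaks of which several are neighbours.

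**Figure D3:**
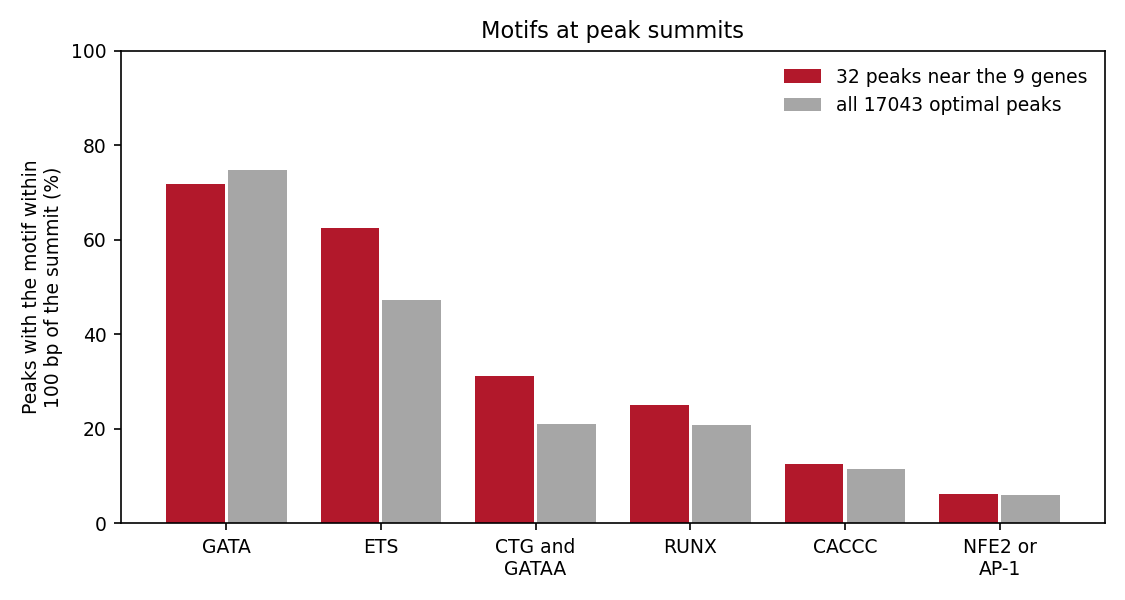
Share of peaks, in percent, with each motif within 100 bp of the summit, for the 32 peaks near the 9 genes (red) and for all 17043 optimal peaks (grey). ETS motifs are at 62.5% of the 32 peaks and 47.2% of all optimal peaks, and GATA motifs at 71.9% of the 32 and 74.7% of all.

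Other genes of the lineage were counted in the same way, from lists by function. Of 22 transcription factor genes, 17 had a peak within 50 kb (77.3%; median 4.5 peaks per gene), beside 53.7% and a median of 1 over all protein-coding genes. The strongest were 570.3 at Gfi1b, 505.5 in an intron of Zfpm1, the gene of FOG1, and 397.5 near Lyl1, which lay in an intron of Nfix. The megakaryocyte factor genes Runx1, Fli1 and Nfe2 had strongest signals of 345.3 in an intron of Runx1, 24.5 in an intron of Fli1 and 29.2 in Cbx5, 12113 bp from Nfe2. These 3 were picked from the list after their values were seen. Cbfb, which encodes the partner of RUNX1, and the ETS factor gene Gabpa were among the 5 without a peak.

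Of 21 further adhesion and receptor genes, 14 had a peak (66.7%; median 1), near the 53.7% and the median of 1 over all protein-coding genes. The strongest was 320.6 for Fcer1g, the signalling chain of the collagen receptor, but that peak lay 46673 bp away at the start of the heme enzyme gene Ppox. Cd36, a scavenger receptor gene, had 239.2 in its own intron. Cd226 and Clec1b were among the 7 with none. The remaining subunit genes of the GPIb-IX-V complex differed: Gp5 had 1 peak, of 61.2 and 50 bp from its TSS, and Gp1bb had none. Itgb3, the partner of Itga2b, had 2 peaks, the stronger 36.2 in its own intron. F2rl3, the gene of PAR4, had no peak within 50 kb. Gp5, Gp1bb, Itgb3 and F2rl3 are named as partners of the genes above, after their values were seen.

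Of 21 genes for granule contents and granule formation, 14 had a peak (66.7%; median 1), again near the 53.7% and the median of 1 over all protein-coding genes. The list was led by Gfi1b, which is also on the transcription factor list, by Mmrn1, the gene of the granule protein multimerin 1, with 288.4 in its own intron, and by Timp3, a metalloproteinase inhibitor gene, with 215.1 in an intron of Syn3. Clu and F5 were among the 7 without. Of 28 cytoskeleton and signalling genes, 24 had a peak (85.7%; median 3), beside the same 53.7% and median of 1. Tbxas1, the gene of thromboxane synthase, had 22 peaks and a strongest of 439.6 in its own intron. Wdr1, whose product helps to take actin filaments apart, had 384.6 in intergenic sequence, and Tln1, the gene of the integrin activator talin, 294.0 at a distance of 35778 bp. Actn1 and Gng11 were among the 4 without.

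**Figure D4:**
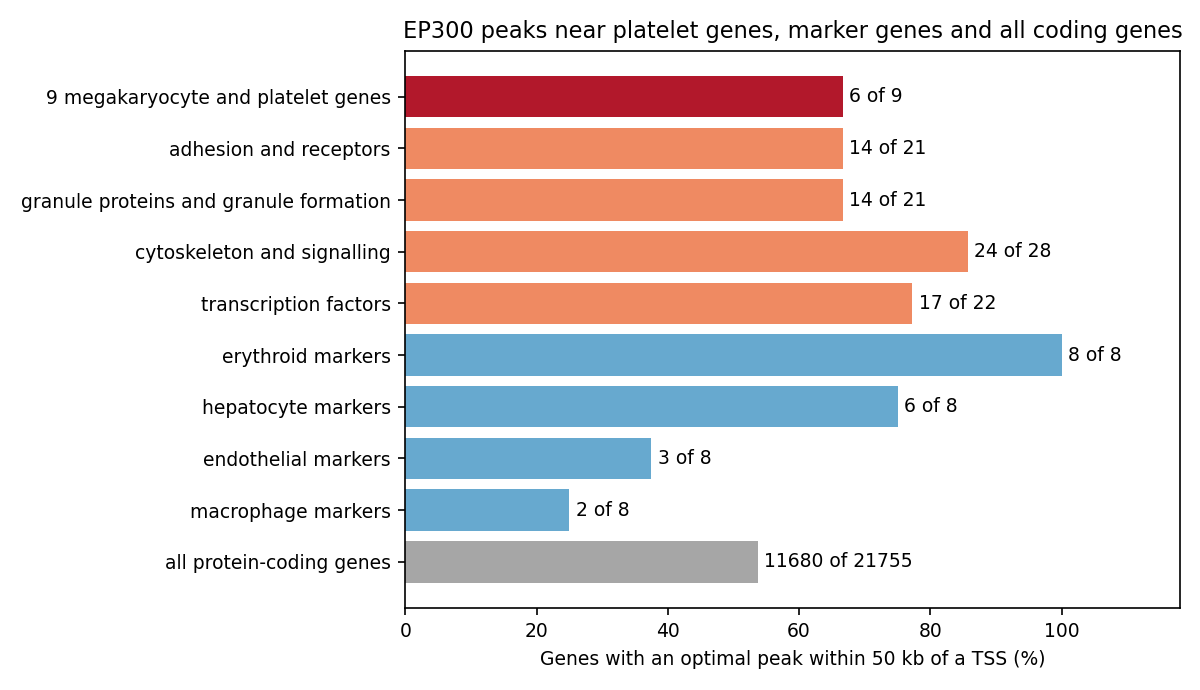
Share of genes with an optimal peak within 50 kb of a TSS, in percent, for the 9 genes (red), 4 lists of further megakaryocyte and platelet genes (orange), markers of 4 other cell types of the organ (blue) and all protein-coding genes (grey), with the counts beside the bars. The 9 genes are at 66.7%, erythroid markers at 100% and all protein-coding genes at 53.7%.

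Markers of the other cell types of the organ were counted beside them, against the same 53.7% of all protein-coding genes. All 8 erythroid markers had a peak (median 6.5 peaks per gene), with strongest signals from 182.5 at Epb42 to 544.1 near Hba-a1. Of 8 hepatocyte markers 6 had one, with strongest signals from 14.7 at Hnf4a to 89.7 near Apoa1, in an intron of Sik3. The neighbours Alb and Afp shared their strongest peak, of 22.7, which had no summit in replicate 2. The Fgb peak, of 20.4, had no summit in replicate 1. Of 8 endothelial markers, which matter for Vwf, 3 had one: Lyve1 (241.2, in Rnf141), Kdr (128.1) and Eng (82.7), while Cdh5, Emcn, Stab2, Tek and Tie1 had none. Of 8 macrophage markers 2 had one. Many of the platelet factor genes, Gata1, Zfpm1 and Gfi1b among them, act in red cells as well, and how much each cell type contributed to the peaks at the 9 genes was not tested.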

How the data were processed

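Analysis began from peak lists on mm10 that the authors deposited, namely 300000 peaks per library, a pooled list of 300000, and the optimal (17055 peaks) and conservative (15728) lists. Per the labels and the listings deposited beside them, a library's list came from its alignments and 1 control file, and the pooled list from the alignments of both with 2 control files. No aligner, peak caller or threshold is named in the sources used here. Peak signal is the authors' deposited value per peak and was used only within a list; ranks were compared only between lists of equal length. Read totals are not given, so depth is unknown and no interval is given.

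Summits were compared with TSSs of GENCODE vM21 (GRCm38, which is mm10), and 12 optimal peaks on other contigs were left out. Sequence was read from GRCm38. Introns are counted in the coding transcript with the most exons. Python 3.11.15, pandas 2.3.3, numpy 2.4.6 and pysam 0.24.0 were used. The counting and motif search were tested on simulated data, where 200 of 200 planted genes and 32 of 32 planted motif placements were found. Planted peaks lay inside the search window and planted motifs were the searched words, so this checks the code alone and gives no error rate.

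The 9 genes, the further lists and the motifs were chosen with earlier results of these data known. Of the listed genes, Mkl1 was not matched by symbol. By rule, the text names the strongest peak of each of the 9 genes, those within 1 kb of its TSS and those above the median signal, and from each further list the 3 genes with the strongest peak and up to 2 without; 1 gene of the adhesion and receptor list is not reported here. The alternatives were windows of 20 kb and 5 kb, TSSs of protein-coding transcripts, nearest-gene assignment, other peak lists, each library alone, a match within 25 bp or among top peaks, and motifs within 50 bp.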

Additional observations from a re-analysis of the deposited data

How the results depend on the processing

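The count of 6 of 9 genes with a peak was also found with the 20 kb window (38.6% of all protein-coding genes), with TSSs of protein-coding transcripts (51.8%), in the conservative list (52.1%), above the median signal (39.1%), in an equal number of top pooled peaks (54.9%) and with nearest-gene assignment, for which no share over all genes was computed. It was 5 with the 5 kb window (23.5%), where F2rl2 dropped out. Taking as many top peaks of 1 library alone gave 6 to 8 genes, 31 to 36 peaks and 22 to 24 peaks with a GATA motif. The share over all protein-coding genes was 55.1% without replicate 2 and 54.8% without replicate 1. The 8 genes came without replicate 2, where a peak of replicate 1 with a signal of 11.2 added Pf4 and Ppbp. Of the 32 peaks, 17 lay within 20 kb and 6 within 5 kb, 18 had the platelet gene as nearest coding gene and 20 were above the median signal. Peaks found in both libraries numbered 27, and 16 within 20 kb, 5 within 5 kb and 15 by nearest gene. Peaks with a GATA motif numbered 23, and 13, 5 and 15 under the same 3 choices, by construction from fewer peaks. With a match of 25 bp, 20 of the 32 recurred, beside 50.2% of optimal peaks, and with 50 bp on either side of the summit 20 had a GATA motif, beside 66.4%. With matches sought only among as many top peaks of each library as the optimal list holds, 22 of the 32 recurred. For that setting no share over all optimal peaks was computed. Of the counts of peaks for each gene under these choices, 22 moved by over 1.5 times and 59 did not. The 59 include many counts for Pf4, Ppbp and Gp6 that stayed at 0, where there was no peak to lose. No paired analysis was possible because the libraries form 1 group. Depth is unknown, so a gene without a listed peak may have weaker binding.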

Other observations

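Beyond the 50 kb limit, 27 further optimal peaks lay between 50 and 100 kb from a TSS of the 9 genes. The nearest to the limit from inside was a Gp9 peak at 49754 bp with a signal of 16.6, and from outside an F2rl2 peak at 58919 bp with 22.5. Of the 27, 15 had the red cell gene Slc4a1, which encodes the anion exchanger band 3, as nearest coding gene and lay 80205 to 98984 bp from Itga2b TSSs, with signals from 5.55 to 331.6. These were stronger at their highest than any of the 4 peaks of the Itga2b window, whose strongest signal was 71.0. Near Vwf, a peak of 112.5 lay in Cd9, which encodes a platelet tetraspanin, 73193 bp from Vwf. The single peak in this range for Gp6 had a signal of 23.3, at a distance of 96513 bp in Ppp1r12c. Pf4 and Ppbp had none within 100 kb.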
